A study of Rattus norvegicus with 30 samples.

Results

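Cortex and hippocampus were compared in 5 sham-operated rats, which by their labels are the same in both areas. The comparison used 10 of the 30 mRNA libraries of the series: the 5 libraries from the cortex of sham rats 1 to 5 and the 5 from the hippocampus of the same rats, joined by rat number and by Ensembl gene identifier. All animals of the series were male Sprague-Dawley rats. Sham rats received anesthesia, craniectomy and the other surgery of lateral fluid-percussion injury, a model of traumatic brain injury (TBI), but no pressure pulse to the dura. Tissue was taken 3 months after the operation. The cortical sample came from the area that is perilesional in rats with TBI, and the sample called hippocampus was dissected as the dentate gyrus with the adjoining part of CA3, so the comparison covers neither the whole neocortex nor the whole hippocampal formation. The thalamus of the same rats (5 libraries) and the cortex and hippocampus of rats 6 to 10 with TBI (10 libraries) served for reference.

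The neocortex holds layers of excitatory projection neurons, which send axons within the cortex or to deeper targets, together with several classes of inhibitory interneuron. The dentate gyrus is dominated by densely packed granule cells, whose mossy fibers contact hilar mossy cells and CA3 pyramidal cells, and it is a site of adult neurogenesis. Both areas also contain astrocytes, oligodendrocytes, microglia and vessels, so a bulk library averages over many cell types. A lower level in one area can therefore come from fewer cells of a type or from less RNA in each cell, and bulk libraries cannot tell these apart.

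The deposited tables identify genes by Ensembl identifier alone, and 0 of them could be matched to a gene symbol with the reference table at hand. The results are therefore given for identifiers and for groups of identifiers defined by size of difference and by level. The labelled areas were not checked against marker genes, and 34 lists of neuronal, glial and vascular markers and of receptors, channels, neuropeptides and transcription factors were not run. No gene name, function or sequence is attached to an identifier below.

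Each library held between 23903839 and 29536124 reads counted on 26404 identifiers. A pair of hippocampal libraries stood apart: the 10 most counted identifiers took 44.1% of the counts in the library labelled rat 4 and 40.9% in that labelled rat 5, against 15.1% to 16.4% in the other 3 hippocampal libraries and 20.3% to 29.6% in the cortex. The counts outside these identifiers were 13939389 and 15151078, the lowest of the 10 libraries. By the study's methods, a pair of sham hippocampal libraries was discarded for a low share of aligned reads, so these failed ones are among the 5 sham hippocampal libraries used here. They are not named there, and the counts used here give no alignment rate, so each pair of rats was also left out in turn. The hippocampal libraries labelled rats 3 and 8, set against each other, went against the order of these rats in the other areas. A check of a pair cannot tell which of the 2 departs from its label. Among 30 identifiers whose level parted rats 3 and 8 the same way in cortex and thalamus (by over 1.5 on the log2 scale) and that differed by over 1 in the hippocampus, 0 had the same direction there, whereas over the other 44 pairs of rats 698 of 750 did (93.1%). Keeping only identifiers whose levels in the remaining sham rats and rats with TBI overlapped in both cortex and thalamus, it was 0 of 13 for rats 3 and 8 and 224 of 267 (83.9%) for the other pairs. Rat 8 had TBI, and whether these 2 hippocampal libraries were exchanged could not be settled here. The labels were kept, each library is called by its label throughout, and the main counts are also given without rats 3, 4 and 5. Hippocampal column names carry the tag FC120 (rats 2, 3 and 4), FC122 (rat 5) or none (rat 1), which no label explains, and cortical names carry none. No label gives the sequencing run, so run and brain area cannot be told apart.

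Many genes differed in level between the areas, in both directions. Of 16862 identifiers with enough counts to be tested, 4320 (25.6%) were higher in the cortex and 4263 (25.3%) were higher in the hippocampus, together 50.9% (edgeR's quasi-likelihood test with the rat as a block, Benjamini-Hochberg adjusted p under 0.05). Most of these differences were small: 6634 of the 8583 (77.3%) were under 2-fold, and the median absolute log2 fold change was 0.59 among the called identifiers and 0.33 among all tested. The scaling centers the fold changes (median of all tested identifiers 0.02 on the log2 scale), so the balance of the directions is largely set by it. The order of the counts turned with the setting, from 4106 higher in the cortex and 4515 in the hippocampus when the 10 most counted identifiers of each library were left out of the scaling, to 4530 and 4154 with no filter on low counts. The median standard error (SE) of a log2 fold change was 0.115.

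Differences of over 2-fold were found for 1018 identifiers higher in the cortex (6.04% of those tested) and 931 higher in the hippocampus (5.52%). Over 4-fold the counts were 279 (1.65%) and 227 (1.35%), and over 8-fold 100 (0.593%) and 71 (0.421%). Over 16-fold they were equal, with 33 identifiers on each side (0.196% each). Among the 8279 identifiers that did not pass the test, 67 had fitted differences of over 2-fold, with a median SE of 0.999 on the log2 scale.

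**Figure D1:**
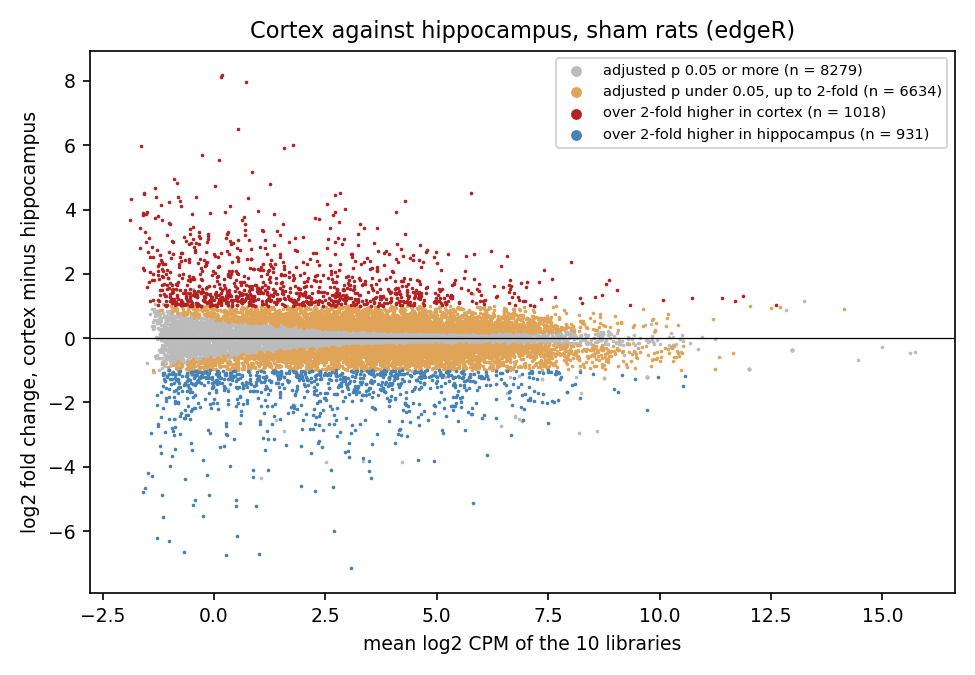
Each point is 1 of 16862 tested identifiers, with the mean log2 CPM of the 10 sham libraries on the horizontal axis and the log2 fold change, cortex minus hippocampus, on the vertical axis. Red and blue points passed the test with over 2-fold higher levels in the cortex (1018) and the hippocampus (931), orange points passed it with smaller differences (6634), and gray points did not pass.

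The areas were fully separated for 5670 identifiers (33.6% of those tested), where the levels of all 5 libraries of one area exceeded all 5 of the other. The cortex was the higher area for 2772 of them (16.4%) and the hippocampus for 2898 (17.2%). Of the identifiers with differences of over 2-fold, 917 of 1018 on the cortical side and 836 of 931 on the hippocampal side were separated in this way. Within rats, the cortex was higher in 5 of 5 rats for 988 of the 1018, and the hippocampus was higher in 5 of 5 for 888 of the 931, against 26.0% and 26.1% of all tested identifiers. The test itself selects for such order, so these counts describe the lists and add no evidence.

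The 2 lists differed in level. Levels are given as CPM, read counts scaled to the size of the library. For identifiers over 2-fold higher in the cortex, the median level was 5.88 CPM in the cortex and 1.64 CPM in the hippocampus. For those over 2-fold higher in the hippocampus, it was 12.5 CPM in the hippocampus and 3.50 CPM in the cortex. Levels of at least 100 CPM in the higher area were reached by 67 of the 1018 identifiers of the cortical list and 123 of the 931 of the hippocampal list. Of all 16862 tested, 1705 lay between 100 and 1000 CPM in the higher area and 133 above that. CPM is not corrected for transcript length, so these levels describe abundance in the libraries rather than transcript numbers per gene.

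Between 1 and 10 CPM in the higher area, 508 identifiers were over 2-fold higher in the cortex and 379 in the hippocampus. Between 100 and 1000 CPM the order was the other way, with 58 in the cortex and 115 in the hippocampus. Identifiers that passed the test at any size of difference leaned the same way. They numbered 1392 in the cortex and 1099 in the hippocampus from 1 to 10 CPM, and 483 and 675 from 100 to 1000 CPM. The share of identifiers that passed the test was 20.9% of 1092 under 1 CPM, 42.8% of 5819 from 1 to 10 CPM, 57.1% of 8113 from 10 to 100 CPM, 67.9% of 1705 from 100 to 1000 CPM and 53.4% of 133 above that. The median SE moved with it, from 0.309 in the lowest class to 0.0801 between 100 and 1000 CPM. Under 1 CPM, 160 of the 228 identifiers that passed were over 2-fold.

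Near-absence from one area was rare. With a mean of at least 1 CPM in the higher area, 7 identifiers had at most 3 counts in every hippocampal library and 7 had at most 3 counts in every cortical library. The highest mean level among them was 20.1 CPM in the cortex and 3.63 CPM in the hippocampus. At the same level, 0 identifiers had 0 counts in all 5 libraries of the other area.

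The largest difference was that of ENSRNOG00000049205. Its level in the cortex of rats 1 to 5 was 11.4, 14.2, 13.3, 10 and 10.3 CPM, from 229 to 382 counts per library. In the hippocampal libraries labelled rats 1 to 5 it had 0, 3, 1, 0 and 0 counts. Every cortical library was thus far above every hippocampal one, and the 4 counts summed over the hippocampus carry an exact 95% Poisson interval of 1.09 to 10.2, which covers counting error only. The mean level was 11.8 ± 1.85 CPM in the cortex and 0.0324 ± 0.0542 CPM in the hippocampus (SD, n = 5), and the fitted log2 fold change was 8.17 (SE 0.31, edgeR adjusted p = 6.16e-09). With so few hippocampal counts the size of this value depends on the fit: it ranged from 7.58 to 10.87 over 23 alternative settings. In the thalamus of the same rats the mean was 0.874 CPM, above the hippocampus and far below the cortex.

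The second largest, ENSRNOG00000046367, followed the first closely. Its cortical levels were 11, 13.8, 12.9, 9.66 and 9.86 CPM, and its hippocampal counts were again 0, 3, 1, 0 and 0. The log2 fold change was 8.12 (SE 0.31, edgeR adjusted p = 6.66e-09). The counts of these 2 identifiers differed by at most 4.18% in each of the 10 libraries, so they may share reads, and they are not independent measurements.

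On the hippocampal side, ENSRNOG00000046863 led. Its levels were 41.7, 119, 153, 138 and 150 CPM in the hippocampal libraries labelled rats 1 to 5, and 1.29, 1.21, 0.559, 0.543 and 0.573 CPM in the cortex. The areas did not overlap, and rat 1 had both the lowest hippocampal and the highest cortical level. The mean was 120 ± 46.0 CPM in the hippocampus and 0.836 ± 0.382 CPM in the cortex (SD, n = 5), with a log2 fold change of -7.15 (SE 0.50, edgeR adjusted p = 0.00025). The thalamus varied among rats, with 34.3, 10.4, 21.9, 10.9 and 34.2 CPM, and lay between the other areas in every rat.

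ENSRNOG00000018580 had 14.5, 9.67, 10.3, 10.8 and 5.29 CPM in the hippocampal libraries labelled rats 1 to 5. In the cortex it had 4, 3, 1, 3 and 0 counts. The areas again did not overlap, with means of 10.1 ± 3.29 CPM in the hippocampus and 0.0943 ± 0.0784 CPM in the cortex (SD, n = 5). The log2 fold change was -6.74 (SE 0.26, edgeR adjusted p = 6.99e-09). The thalamus had 0.784, 0.268, 0, 0 and 0.0765 CPM in rats 1 to 5, most of it in rat 1, and every thalamic library was below every hippocampal one.

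**Figure D2:**
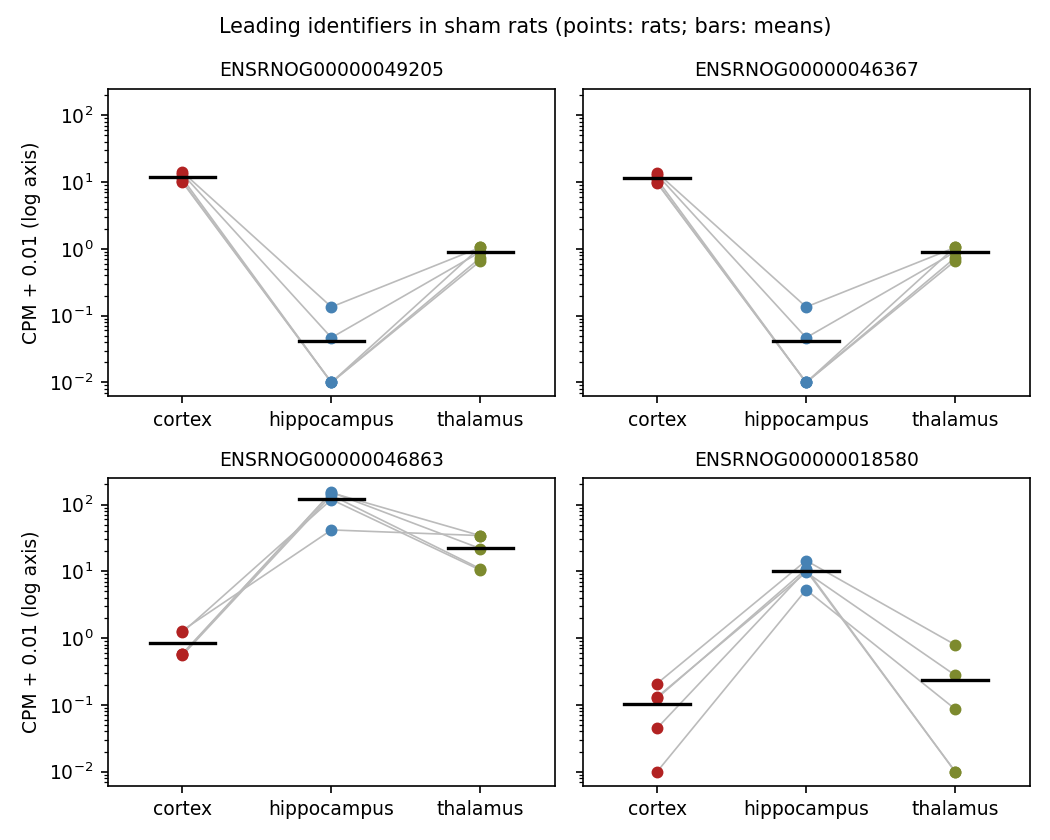
Levels of the 4 leading identifiers in the cortex, hippocampus and thalamus of the 5 sham rats, as CPM plus 0.01 on a log axis, with 1 point per rat, lines joining a rat's libraries and bars for the means. In the upper panels the cortex has means of 11.8 and 11.4 CPM and the hippocampus at most 3 counts in a library, and in the lower panels the hippocampus has means of 120 and 10.1 CPM, above every cortical library.

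Beyond these, the 12 largest differences per direction among separated identifiers of at least 5 CPM were described as groups. Log2 fold changes ran from 8.17 to 4.52 on the cortical side and from -7.15 to -4.63 on the hippocampal side, with SEs of 0.12 to 0.44 and 0.09 to 1.23. The rule required separated areas, which fixes the direction in every rat. Mean levels in the higher area ran from 5.21 to 311 CPM in the cortical group and from 7.93 to 392 CPM in the hippocampal group. The hippocampal identifier with the SE of 1.23 was the least secure of the 24: its level was 10.1 ± 17.0 CPM, its adjusted p was 0.0295, and its log2 fold change went from -4.86 with all rats to -2.63 without rats 4 and 5.

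The thalamus did not place the leading identifiers alike. In the cortical group, thalamic means were under 10% of the cortical mean for 8 of 12 identifiers, while for 2 of 12 they were over 90%: one had 311 CPM in the cortex, 309 CPM in the thalamus and 13.5 CPM in the hippocampus, and another 39.1, 36.3 and 1.69 CPM. In the hippocampal group, thalamic means were under 10% of the hippocampal mean for 6 of 12 and over 90% for 1 of 12. The latter had 7.93 CPM in the hippocampus, 11.1 CPM in the thalamus and 0.235 CPM in the cortex. The thalamus was thus near the cortex for the former 2 and above the hippocampus for the last. The thalamic table was prepared separately, and the study's text and the labels differ on its instrument and read length, so levels set across it are descriptions only.

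Over the whole lists the thalamus most often lay nearer to the lower area or beyond it. Of the 1018 identifiers over 2-fold higher in the cortex, the thalamic mean was below the hippocampus for 327, between the areas but nearer to the hippocampus for 270, nearer to the cortex for 212 and above the cortex for 209. Of the 931 over 2-fold higher in the hippocampus, it was below the cortex for 353, nearer to the cortex for 215, nearer to the hippocampus for 199 and above the hippocampus for 164. Above 8-fold, the thalamus was in the lower part or below for 68.0% of 100 cortical and 74.6% of 71 hippocampal identifiers, and above the higher area for 13.0% and 5.63%.

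The identifiers over 16-fold were also described in single libraries, where the rule itself keeps the other area low. For the 33 identifiers over 16-fold higher in the hippocampus, the median level in the cortical libraries was 2.19% to 3.53% of the hippocampal mean. For the 33 over 16-fold higher in the cortex, it was 2.18% to 4.90% of the cortical mean in the hippocampal libraries, highest in the library labelled rat 3. In the thalamus of rats 1 to 5 the hippocampal list stood at 19.9%, 8.65%, 6.73%, 8.75% and 6.37%. The cortical list stood at 7.28%, 8.40%, 7.87%, 3.87% and 5.50% of the cortical mean there. Rat 1 was thus the highest in the thalamus for the hippocampal list, and rat 2 for the cortical list.

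The 10 libraries separated by area ahead of any other difference. On the 1000 most variable identifiers, the first principal component held 81.8% of the variance and placed the cortex between -38.7 and -29.9 and the hippocampus between 31.7 and 39.5. The second held 6.74% and placed the hippocampal libraries labelled rats 4 and 5 (11.2 and 19.0) away from the other 3 (-13.9 to -7.67). Across genes, Spearman's correlation between libraries was 0.984 to 0.993 within the cortex, 0.984 to 0.992 within the hippocampus and 0.940 to 0.961 between areas. Spread among rats was alike in both areas, with a median SD of log2 CPM of 0.190 in the cortex and 0.184 in the hippocampus.

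**Figure D3:**
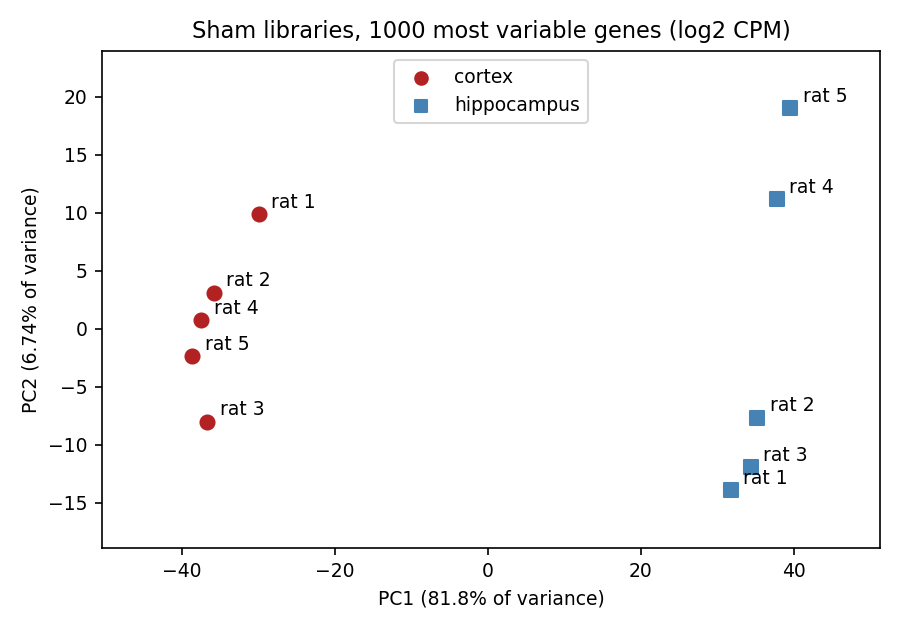
Principal components of the log2 CPM of the 1000 most variable identifiers in the 10 sham libraries, with cortex as red circles and hippocampus as blue squares, labelled by rat. The areas lie at opposite ends of the first component (81.8% of the variance), and hippocampal rats 4 and 5 lie apart from the other hippocampal libraries on the second (6.74%).

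Single-rat values differed among rats. Each rat gave 1 library per area, so its ratios cannot tell a difference between areas from noise of its libraries. Rat 1 lay nearest to the center of the first component in both areas. Its single-rat log2 ratios (cortex minus hippocampus) correlated with those of the other rats at a Spearman coefficient of 0.585 to 0.711, whereas the coefficients among rats 2 to 5 were 0.71 to 0.790. Genes, over which these coefficients run, are not independent of each other. Of the identifiers called in the joint test, 94.8% had the called direction in rat 1 and 98.6% to 99.3% in the others. Single-rat ratios of over 2-fold were fewest in rat 1 (11.8% of tested identifiers) and most frequent in rat 5 (16.5%). The shares were 12.6%, 14.5% and 14.2% in rats 2, 3 and 4. The hippocampal libraries labelled rats 4 and 5 had the fewest counts outside their 10 most counted identifiers (13939389 and 15151078). The part of depth in these shares was not tested.

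Differences of over 2-fold depended little on single rats. In 5 fits that each left out 1 rat, 960 of the 1018 cortical and 866 of the 931 hippocampal identifiers passed every time, and 6306 of all 8583 called identifiers did. Without rat 3, all 1920 of the 1949 that could still be tested kept their direction and 1865 passed. Without rats 4 and 5, all 8581 called identifiers that could be tested kept their direction, and 1808 of 1948 over 2-fold passed, but the number called fell to 2723 higher in the cortex and 3083 higher in the hippocampus. Over the 10 fits that each left out a pair of rats, between 2426 and 4272 identifiers were higher in the cortex and between 2520 and 4063 in the hippocampus. In these fits, 0 of the tested identifiers over 2-fold with all rats changed direction, and 1720 to 1873 of the 1949 passed. With rats 1 and 2 alone, 2444 and 2591 identifiers passed, of which 993 and 865 were over 2-fold.

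**Figure D4:**
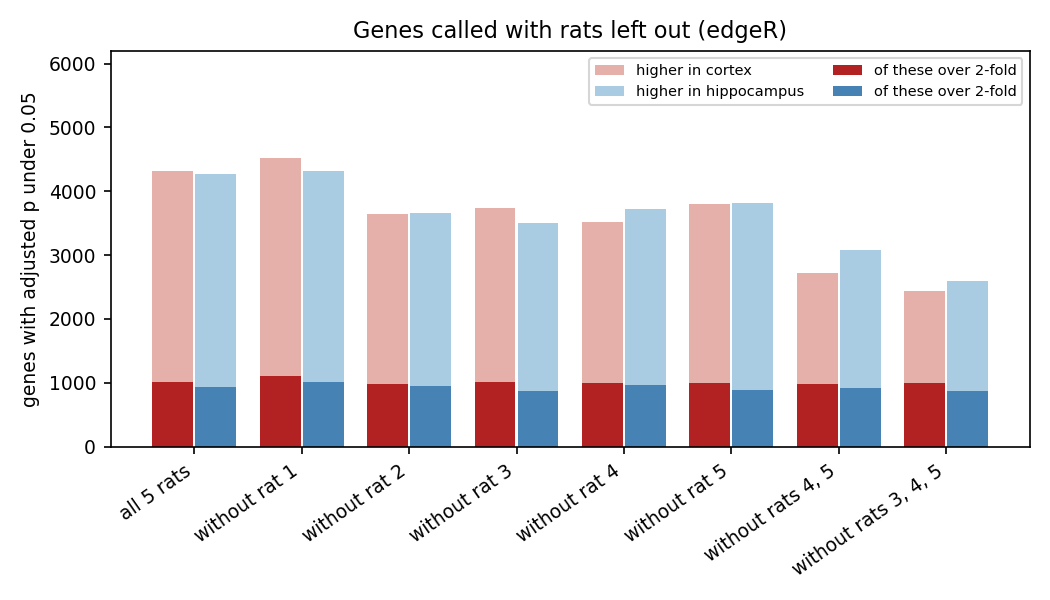
Number of identifiers with an adjusted p under 0.05 (edgeR) that were higher in the cortex (red) or hippocampus (blue), with all 5 rats, with each rat left out, without rats 4 and 5 and without rats 3, 4 and 5; the dark part of each bar is over 2-fold. In these 8 fits the dark parts stay between 865 and 1111, and the whole bars are lowest, at 2444 and 2591, without rats 3, 4 and 5.

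A small group of very abundant identifiers took a large share of the hippocampal libraries labelled rats 4 and 5. The 10 most counted in those libraries took 13.4% to 15.4% of the counts in the other hippocampal libraries and 14% to 28.8% in the cortex. All 10 were higher in the hippocampus with all rats (median log2 fold change -0.37) and all 10 were higher in the cortex without rats 4 and 5 (median 0.61). The 10 were picked for their level in those 2 libraries, so this turn is favored by the choice itself. With the edgeR test, 0 of 10 passed either way. Of these identifiers, 6 had a near copy with counts within 1% of their own, so they are also uncertain in identity. Among all 16862 tested identifiers, the ratio of cortex to hippocampus in rats 4 and 5 differed from that in rats 1 to 3 by over 2-fold for 361. Of these, 255 were relatively higher in the hippocampus of rats 4 and 5. No other split of the rats was set beside this, so it does not show that rats 4 and 5 stand out.

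The same area difference was measured in rats 6 to 10, whose cortex was injured. There, 5656 of 17355 identifiers (32.6%) were higher in the cortex and 5470 (31.5%) in the hippocampus. Of the 1018 cortical identifiers over 2-fold in sham rats, 996 could be tested in rats with TBI, 993 had the same direction and 956 passed (96.0%). Of the 931 hippocampal identifiers, 925 could be tested, 884 had the same direction and 818 passed (88.4%). The median log2 fold changes of these tested identifiers were 1.46 in sham rats and 1.42 in rats with TBI on the cortical side, and -1.41 and -1.39 on the hippocampal side.

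Above 8-fold, all 92 cortical identifiers that could be tested passed in the same direction in rats with TBI, as did 67 of 70 on the hippocampal side. The 4 leading identifiers had log2 fold changes of 8, 7.96, -6.83 and -7.11 there. Similar ratios do not mean equal levels. Cortical ENSRNOG00000049205 had 4.61 to 8.88 CPM in rats with TBI and 10 to 14.2 CPM in sham rats. For ENSRNOG00000046367 these were 4.49 to 8.75 and 9.66 to 13.8 CPM. The hippocampal levels of the 2 leading hippocampal identifiers overlapped between sham rats and rats with TBI. A change of level within an area was not tested here. Of the 7335 identifiers called in both kinds of rat, 84 had opposite directions, including 11 that were over 2-fold in sham rats. Leaving out rats 3 and 8 in the 2 fits, 947 of 1000 cortical and 755 of 869 hippocampal identifiers over 2-fold passed in the same direction in rats with TBI.

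**Figure D5:**
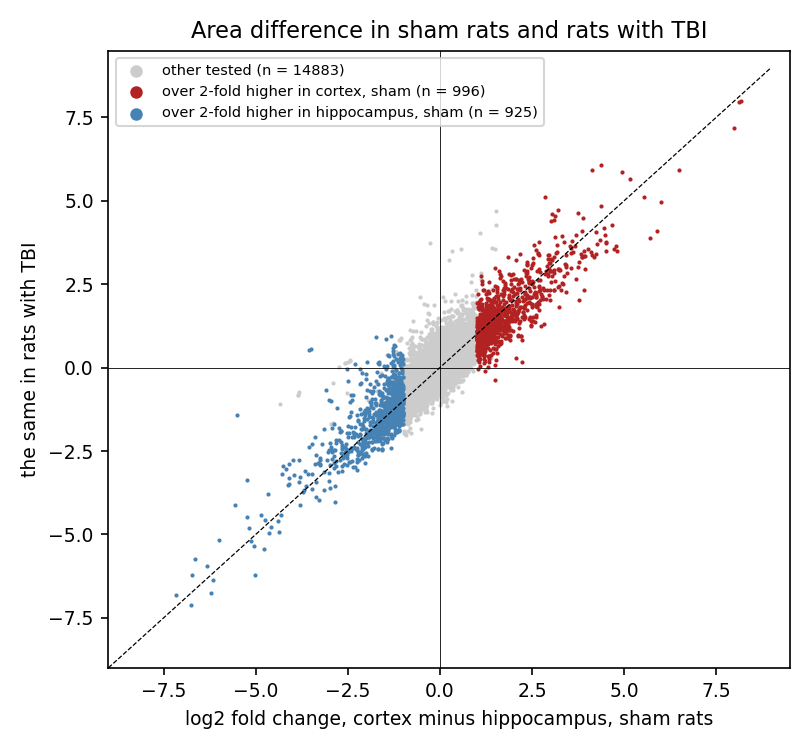
Log2 fold change between cortex and hippocampus in sham rats (horizontal) against the same in rats with TBI (vertical), for the 16804 identifiers tested in both; red and blue mark those over 2-fold higher in the sham cortex (996) and sham hippocampus (925), and the dashed line marks equal values. Of these, 993 red and 884 blue points lie on the same side of 0 in both axes.

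Whether the area difference itself changed with injury was tested as an interaction of area and injury over the 20 libraries. It passed for 1048 of 17688 identifiers (5.92%) with the rat as a block and for 537 without it. Among those over 2-fold in sham rats, it passed for 87 of the cortical list (8.55%), with a smaller area difference after TBI for 80 of them, and for 119 of the hippocampal list (12.8%), smaller for 83. The sham values enter both the lists and this test, so a smaller difference after TBI is favored by how the lists were made. The interaction passed for 3 of the 12 leading cortical identifiers and 0 of the 12 leading hippocampal ones. For the 4 leading identifiers its adjusted p was between 0.779 and 0.978. For the 2 that lead on the cortical side, the ratio rests on at most 3 counts in any hippocampal library. The test could therefore miss a change in their cortical level. Without rats 3 and 8 it passed for 140 identifiers (0.791% of 17697), of which 17 and 32 were in the lists and 0 among the 24 leading identifiers.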

How the data were processed

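The authors aligned the reads (36 cycles, Genome Analyzer IIx) to Rnor_5.0 with STAR and deposited unnormalized read counts per Ensembl identifier in 1 table per brain area. The counting tool and the use of strand are not given in the sources used here. According to the study's methods, a pair of sham hippocampal libraries was discarded for low alignment. They are not named there, and all 5 columns of the deposited table were used here. Every column of counts was assigned to a sample from its name (0 unassigned).

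The analysis ran in R 4.3.3. Package versions were 4.0.16 for edgeR, 1.42.0 for DESeq2 and 3.58.1 for limma. Identifiers were kept by filterByExpr (minimum count 10, minimum total count 15), scaled by TMM, and tested by edgeR's robust quasi-likelihood test with rat and area as terms and Benjamini-Hochberg adjustment over all identifiers tested (threshold 0.05). Fold changes are cortex minus hippocampus. log2 CPM used a prior count of 3, and CPM used 1 TMM scaling of the 30 libraries. The same test was run in rats 6 to 10, and the interaction was fitted over 20 libraries.

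By their labels, the rats pair the libraries, since each rat gave both areas. The correlation of deviations from the area means was -0.0114, 0.0931, 0.0989, 0.0391 and -0.0338 for rats 1 to 5, and the highest with another rat was 0.175, 0.208, 0.0634, 0.132 and 0.103, above the own-rat value in all but rat 3. The block thus rests on the labels, not on these correlations. No library was a second copy of another of its area (smallest chi-square per degree of freedom 21.5). The p-values of the main test are set against the spread, among rats, of the difference between areas within a rat. With 1 library per rat and area, that spread also holds the noise of single libraries.

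The comparison, lists and rules were chosen with earlier results of these data known. The rule for named genes was the 12 largest changes per direction with an adjusted p under 0.05, at least 5 CPM in the higher area, separated areas and no identical counts in another identifier, with at most 2 identifiers printed per direction where no symbol is known. The rule also required a symbol, which was waived because 0 matched; the 34 fixed lists could not be run.

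On simulated counts for this comparison with 200 changed genes, edgeR recovered 54.5% of 1.5-fold changes (16781 genes) and 82.0% of 2-fold changes (16796 genes), 10.7% and 7.34% of the genes called had not been changed, and with no changed gene 0 were called (16802 genes). The simulated setting differs from the data, where 50.9% of tested identifiers passed. It also held no effect of rat and no library of unusual composition, so these rates need not hold for the data. The alternatives tried were no replicate block, DESeq2, limma's voom, other scalings, no filter, and rats left out. Leaving out rats 3, 4 and 5, leaving out each pair of rats other than rats 4 and 5, and keeping 1 identifier per set with identical counts, were added after seeing the data.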

Additional observations from a re-analysis of the deposited data

Results flagged for a closer look

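ENSRNOG00000046863, the leading identifier of the hippocampus, had 1 hippocampal library far from the others. Its level was 41.7 CPM in rat 1 and 119 to 153 CPM in the libraries labelled rats 2 to 5, and on the log2 scale the gap below the other libraries was 0.794 of the whole range, above the critical value of 0.71 for 5 samples. Chance alone marks about 1 in 20 groups in this way. The areas did not overlap in any rat, and without rat 1 the log2 fold change was -7.61 against -7.15.

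The area difference differed between sham rats and rats with TBI for 1048 identifiers by edgeR's interaction test with the rat as a block, for 537 without the block, and for 140 without rats 3 and 8, of which 139 were among the 1048. The part of the hippocampal libraries labelled rats 3 and 8 in the larger number was not tested beyond this.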

How the results depend on the processing

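The counts of differences over 2-fold kept within 1.5 times their main value under all 23 alternatives, from 909 to 1220 higher in the cortex and from 832 to 1137 higher in the hippocampus. The 4 leading identifiers kept their direction and passed under all 23, with adjusted p-values up to 0.0255. Counts at any size of difference fell by over 1.5 times without some sets of rats. Those higher in the cortex and in the hippocampus numbered 2646 and 2520 without rats 2 and 3, 2426 and 2779 without rats 2 and 4, 2664 and 2837 without rats 2 and 5, 2560 and 2785 without rats 3 and 4, and 2444 and 2591 without rats 3, 4 and 5. Without rats 4 and 5, those higher in the cortex numbered 2723. Leaving out 1 rat gave 3518 to 4527 in the cortex and 3497 to 4315 in the hippocampus, and 984 to 1111 and 872 to 1020 over 2-fold, with the highest of each without rat 1.

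Without the rat as a replicate block, 4302 identifiers were higher in the cortex and 4243 in the hippocampus, close to the counts with the pairing, but the interaction of area and injury passed for 537 identifiers rather than 1048. Without rats 3 and 8 it passed for 140. DESeq2 gave 3874 and 3988, voom 4663 and 4596, and removing the 10 most counted identifiers of each library from the scaling gave 4106 and 4515. Identifiers under 1 CPM were measured least precisely, with the highest median SE of the level classes (0.309).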
